A study of Mus musculus with 25 samples.

Results

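The interactions described here are pairs of 10 kb genome bins joined in H3K27ac HiChIP of mouse embryonic fibroblasts (MEF) or of embryonic stem (ES) cells. HiChIP joins DNA ends that are neighbours in the folded genome by ligation and recovers the joined fragments with an antibody, here one against H3K27ac, the acetylated histone H3 found at active promoters and enhancers. The members were all interactions of the 2 deposited lists, 118435 in all: 60870 in the MEF list and 75466 in the ES list, with 17901 in both. They came from 4 of the 25 libraries of the series, 2 per cell type.

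The fibroblasts were prepared from rtTA3-OKSM embryos at E13.5. They were heterozygous for the Oct4-GFP reporter, the OKSM reprogramming cassette (the 4 factors OCT4, KLF4, SOX2 and MYC behind a doxycycline-responsive promoter) and the rtTA3 activator. They were grown in DMEM at low oxygen and collected at passage 3; the labels name no doxycycline for this group. The ES cells were the V6.5 line, 1 line, grown in KO-DMEM under 2i conditions, that is, with a pair of kinase inhibitors that hold the cells in a naive pluripotent state. The labels name no transgene for the ES cells, so genotype, line and medium differ between the groups together with cell type. Both were fixed with 1% formaldehyde.

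Promoters are switched on partly by enhancers that lie at a distance on the same chromosome, and active enhancers and promoters both carry H3K27ac. H3K27ac HiChIP therefore samples contacts of active regulatory DNA, and a rise can come from more acetylation at an anchor, from more frequent contact, or from both, which one assay cannot tell apart. Fibroblasts are known for active matrix, cytoskeletal and AP-1 genes, and ES cells for a network around OCT4, SOX2 and NANOG.

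The libraries held 75.0 and 105 M contacts in MEF and 166 and 168 M in ES. The median listed interaction rested on 19 and 28 counts in MEF and on 45 and 47 in ES. Values are given as CPM, counts per M contacts of the same chromosome, and no listed value was under 3 CPM. Because that floor is set within a chromosome, it stands for as few as 6 and 8 counts in MEF and 13 and 12 in ES, and small chromosomes are listed more densely: chromosome 19 held 5000 MEF and 5461 ES interactions, and chromosome 1 held 1775 and 2447. An interaction absent from a list is one below the authors' thresholds, not one without contact. The lower depth of both MEF libraries moves with every difference in list length below, and its part was not tested.

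The upstream DNA of 4 genes is shown, because these genes lie at the ends of the comparison: *Mycn* and *Nanog* had the widest excess of ES interactions among pluripotency genes, and *Thbs2* and *Acta2* the widest excess of MEF interactions among matrix and cytoskeletal genes. Each run is the 250 bases before the annotated start, from RefSeq on GRCm38.p6, 5′ to 3′ in the direction of the gene. Capitals mark matches on either strand to 4 searched motifs: AP-1 (TGANTCA), KLF (GGGNGTG), octamer (ATGCAAAT) and GC box (GGGCGG); KLF and GC box matches may share bases. *Mycn* lies at chr12:12941837-12942086 on the minus strand, *Nanog* at chr6:122707239-122707488 on the plus strand, *Acta2* at chr19:34255374-34255623 on the minus strand and *Thbs2* at chr17:14694263-14694512 on the minus strand.
Mycn: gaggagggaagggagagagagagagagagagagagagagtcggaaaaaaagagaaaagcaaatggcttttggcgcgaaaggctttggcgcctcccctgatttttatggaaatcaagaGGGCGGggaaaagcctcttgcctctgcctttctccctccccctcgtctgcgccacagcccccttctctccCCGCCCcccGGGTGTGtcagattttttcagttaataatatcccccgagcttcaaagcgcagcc
Nanog: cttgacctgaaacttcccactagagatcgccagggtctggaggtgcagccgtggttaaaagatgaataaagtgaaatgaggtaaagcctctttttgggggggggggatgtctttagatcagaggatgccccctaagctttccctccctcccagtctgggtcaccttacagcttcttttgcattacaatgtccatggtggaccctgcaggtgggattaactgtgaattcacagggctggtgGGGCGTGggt
Acta2: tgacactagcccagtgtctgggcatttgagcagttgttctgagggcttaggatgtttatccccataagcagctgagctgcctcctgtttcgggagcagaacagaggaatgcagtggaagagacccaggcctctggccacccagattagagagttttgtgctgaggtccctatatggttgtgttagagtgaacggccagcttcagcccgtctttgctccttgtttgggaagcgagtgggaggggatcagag
Thbs2: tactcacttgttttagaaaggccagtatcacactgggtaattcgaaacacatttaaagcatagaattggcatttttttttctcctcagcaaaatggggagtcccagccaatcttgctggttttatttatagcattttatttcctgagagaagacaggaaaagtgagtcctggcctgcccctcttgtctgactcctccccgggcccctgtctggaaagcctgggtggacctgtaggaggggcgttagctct
The *Mycn* run held 2 GC boxes and 1 KLF match, the *Nanog* run 1 KLF match, and the *Acta2* and *Thbs2* runs none of the 4 motifs. A match is a string of letters and no sign of a bound factor.

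Over the 300-base promoters of RefSeq (250 bases before to 50 after each start), the genes of the 2 lists differed in base composition. The GC box was present in 32.3% of promoters of genes with interactions in MEF alone, in 47.8% for ES alone and in 55.6% for genes with a common interaction, against 48.0% for genes with an interaction in either list and 35.7% of all 32851 promoters. The ES-alone share thus lay at that of genes with any interaction. The median GC content followed the same order, at 51.7%, 57% and 59%, and the median number of CpG pairs was 6, 14 and 18. The AP-1 string was in 9.58% of the MEF-alone promoters, 5.95% of the ES-alone promoters, 5.58% of those with a common interaction, 6.58% of those with any interaction and 7.81% of all. The KLF string was in 29.3%, 34.1%, 35.1%, 33.5% and 29.2% in the same order, and the octamer in 1.70%, 1.70% and 1.30% of the first 3 sets and 1.74% of all. These shares are descriptions of unequal gene sets (2702, 3976 and 5844 genes with a promoter). Base composition moves with them, and its part was not tested.

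The lists overlapped by 29.4% of the MEF list (95% Wilson interval 29.0 to 29.8) and 23.7% of the ES list (23.4 to 24.0). Intervals here cover the counting error of listed interactions only, since each cell type has 1 list and so no spread between replicates. They also leave out that PCR copies without molecular identifiers are not independent molecules. Interactions of MEF alone mostly had anchors that the ES list did not use at all: for 60.4% neither anchor bin was an anchor in ES, for 21.04% only 1 was, and for 18.6% both were, in other pairings. For interactions of ES alone these shares were 35.8%, 33.5% and 30.6%. Of the ES-alone interactions, 31.9% lay within 1 bin of a MEF interaction at each anchor, and of the MEF-alone interactions 19.2% lay so close to an ES one. List-only interactions were also weaker, with a median of 5.18 CPM for MEF alone and 5.21 CPM for ES alone, against 5.85 CPM (MEF values) and 6.81 CPM (ES values) for the common ones.

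Other lists of the series separated the classes further. In untreated TKO cells, which by their labels are ES cells of the same line and medium, H3K27ac HiChIP listed 74.9% of the ES-alone interactions, 86.2% of the common ones and 9.66% of the MEF-alone ones. Hi-C, which joins neighbouring DNA ends without an antibody, separated them far less. It is another assay with lists of other lengths: the 2 Hi-C lists share 127440 pairs, and the untreated TKO list holds 93248. The part of assay and list length was not tested. The MEF Hi-C list held 43.8% of the MEF-alone and 30.3% of the ES-alone interactions, and the ES Hi-C list held 41.3% and 46.5%. Within the MEF-alone set the Hi-C lists lay close at 10 to 20 kb, with 45.5% in MEF Hi-C and 44.8% in ES Hi-C, and lay farthest apart at 200 kb or more, with 33.0% (30.2 to 35.9) in MEF Hi-C and 15.2% (13.1 to 17.5) in ES Hi-C. KLF4 HiChIP of ES cells listed 18.6% of the ES-alone and 3.29% of the MEF-alone interactions, and KLF4 HiChIP at day 3 of reprogramming 8.05% and 10.7%.

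By distance, the common interactions were the shortest. Of them 63.9% spanned 10 to 20 kb, against 52.0% of the MEF-alone and 44.5% of the ES-alone set. ES-alone interactions were more often of middle range, with 20.2% at 50 to 90 kb against 16.3% for MEF alone. At 200 kb or more the order turned: 2.46% (2.31 to 2.61) of MEF alone, 1.78% (1.68 to 1.89) of ES alone and 0.531% of the common interactions. The counts of the single libraries gave the same picture at this range, with 1.31% and 1.29% of listed counts in MEF replicates 1 and 2, and 0.788% and 0.773% in those of ES. The replicates of a cell type lay closer together than the cell types did, and with 2 libraries a group no permutation test can fall below an exact two-sided p of 0.33. Over 50 kb and more, the ES list had the larger share at 26.3%, against 22.4% for MEF. Its strongest 60870 interactions had 19.3%, but that cut raises the CPM floor of ES alone. With 1 count cutoff for all chromosomes, given in the last section, ES kept the larger share, so the order depends on the cutoff.

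**Figure D1:**
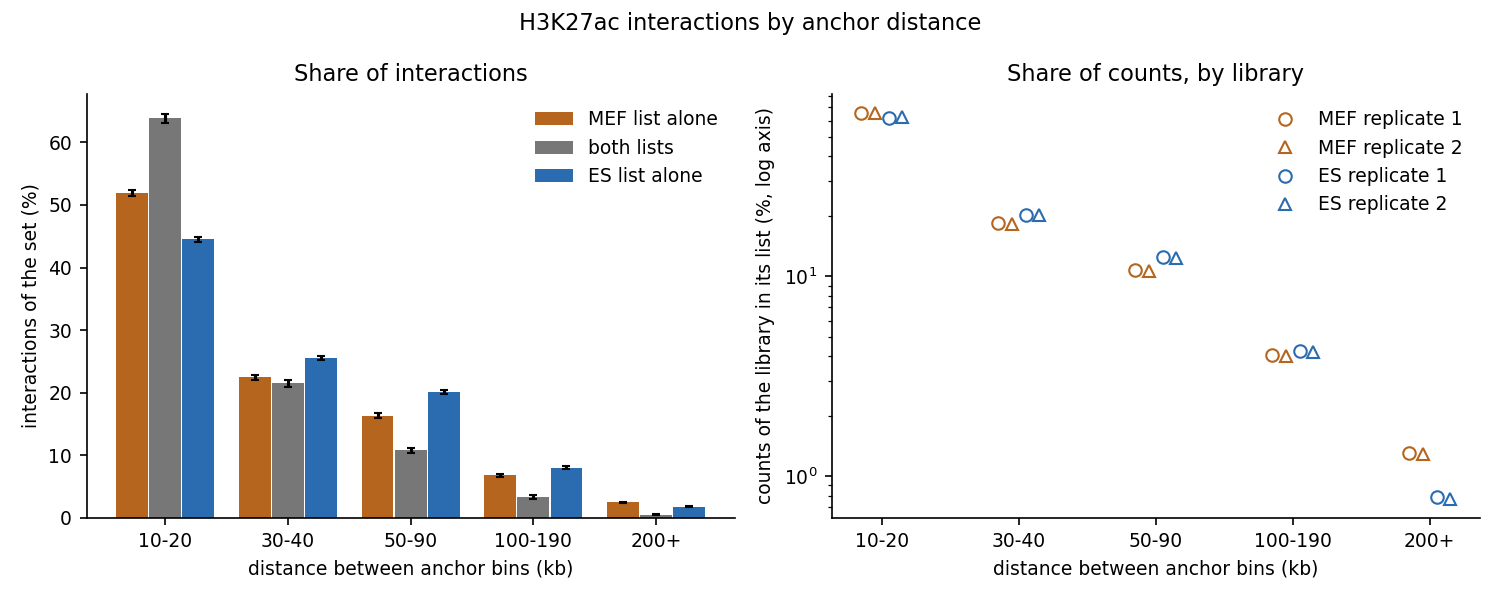
Left, percent of interactions per distance class (x, kb between anchor bins) for the MEF-alone, common and ES-alone sets, with 95% Wilson intervals; right, percent of each library's listed counts per class on a log axis, 1 symbol per library. The common set peaks at 10 to 20 kb with 63.9%, and at 200 kb or more both MEF libraries (1.31% and 1.29%) lie above both ES libraries (0.788% and 0.773%).

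Among the 17901 common interactions, edgeR's quasi-likelihood test called 5721, or 32%, at a Benjamini-Hochberg adjusted p under 0.05; 3152 (17.6%) were higher in ES and 2569 (14.4%) lower. The called ones reached a 2-fold change in 1372 and 955 cases. Scaling matters for this split: under TMM the median log2 change of all common interactions was -0.04, and with contact totals alone it was 0.21, with 4831 higher and 1426 lower. DESeq2 called 1588 higher and 870 lower among the 12695 interactions it gave an adjusted p. Leaving out MEF replicate 2, the deeper MEF library, brought the calls to 2094 higher and 1239 lower. CPM of the groups did not overlap, ES above MEF, for 44.4% of common interactions, and MEF above ES for 19.1%.

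Calls differed by distance. At 10 to 20 kb, 20.2% of 11437 common interactions were higher in ES and 14.3% lower. At 100 to 190 kb, 7.72% of 596 were higher and 17.8% lower. At 200 kb or more, 3 of 95 were higher and 19 lower, with a median log2 change of -0.38. With contact totals in place of TMM the longest class had 7 higher and 13 lower and the shortest had 30.2% higher and 7.53% lower, so the split moved toward ES. The share that was higher did not fall evenly under every setting: at 6 CPM or more it was 20.8%, 25.3%, 25.8%, 17.3% and 7.14% from the shortest to the longest class, and with DESeq2 12.1%, 14.7%, 14.0%, 12.0% and 5.88%. In both of these, as in the others run with all classes, it was lowest at 200 kb or more, a class that then held 28 and 17 interactions. The MEF Hi-C list held 52.4% (50.6 to 54.1) of the common interactions that were higher in ES and 64.7% (62.9 to 66.6) of the lower ones, and the ES Hi-C list held 64.9% (63.2 to 66.5) and 71.4% (69.6 to 73.1). For the pairs listed in both Hi-C lists, which leaves out pairs that only 1 of them holds, the median log2 ratio of ES over MEF Hi-C counts, scaled by listed counts, was -0.33 for 1361 interactions higher in H3K27ac, -0.38 for 1369 lower ones and -0.32 for 5408 not called. Over all 127440 Hi-C pairs in both lists it was -0.34.

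By anchor class the cell types differed widely. An anchor was a gene bin where a gene start lies in it, a distal peak bin where it holds an H3K27ac peak of the authors' TKO annotation and no gene, and unannotated otherwise. That annotation pools the TKO lists from before and after doxycycline treatment. Both are of ES-type cells, so a fibroblast enhancer counts as unannotated by construction. Both anchors were unannotated for 53.3% (52.8 to 53.7) of MEF-alone interactions, for 2.13% of the common and for 2.00% of the ES-alone ones. A gene joined to a distal peak made up 29.3% of ES-alone interactions and 4.73% of MEF-alone ones, and distal peak pairs made up 25.2% and 2.94%. The gene share does not use the peaks, but 2796 of 31760 genes were placed only by the authors' names at anchors of the TKO lists. That placing favours bins used in ES-type cells, and its part was not tested. The gene share differed as well: 31.3% of MEF-alone and 54.9% of ES-alone interactions had a gene start at 1 anchor or both. With protein-coding starts alone these shares were 20.1% and 46.2%. Of the anchor bins, 12.4% held a gene start among 23970 used in MEF alone, 21.7% among 20258 used in ES alone and 33.5% among 19878 used in both.

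Common interactions moved by class as well, but the peak classes rest on H3K27ac of ES-type cells, the mark that was counted. A split toward ES with peaks and toward MEF without them is thus partly built into the classes. Of 5217 that join a gene to a distal peak, 26.3% were higher in ES and 10.1% lower, and of 3041 that join 2 gene bins, 22.2% and 10.2%. Distal peak pairs had 26.6% higher and 12.0% lower of 3111. A gene joined to an unannotated bin was higher in 4.71% and lower in 18.2% of 3713, and among 381 pairs of unannotated bins 2 were higher and 147 lower, with a median log2 change of -0.46. With contact totals in place of TMM the gene to peak class had 38.6% higher and 5.60% lower, and the unannotated pairs 7 higher and 81 lower. Gene to unannotated pairs then had 10.6% higher and 10.5% lower, so their excess of lower calls depends on the scaling. KLF4 HiChIP of ES cells listed 67.6% of the common interactions that were higher in ES and 35.8% of those that were lower. It listed 41.9% of all common interactions and 36.5% of those not called, so the lower ones lay close to the not-called share. KLF4 HiChIP at day 3 of reprogramming listed 45.3% of the higher and 42.5% of the lower ones, against 30.95% of those not called.

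**Figure D2:**
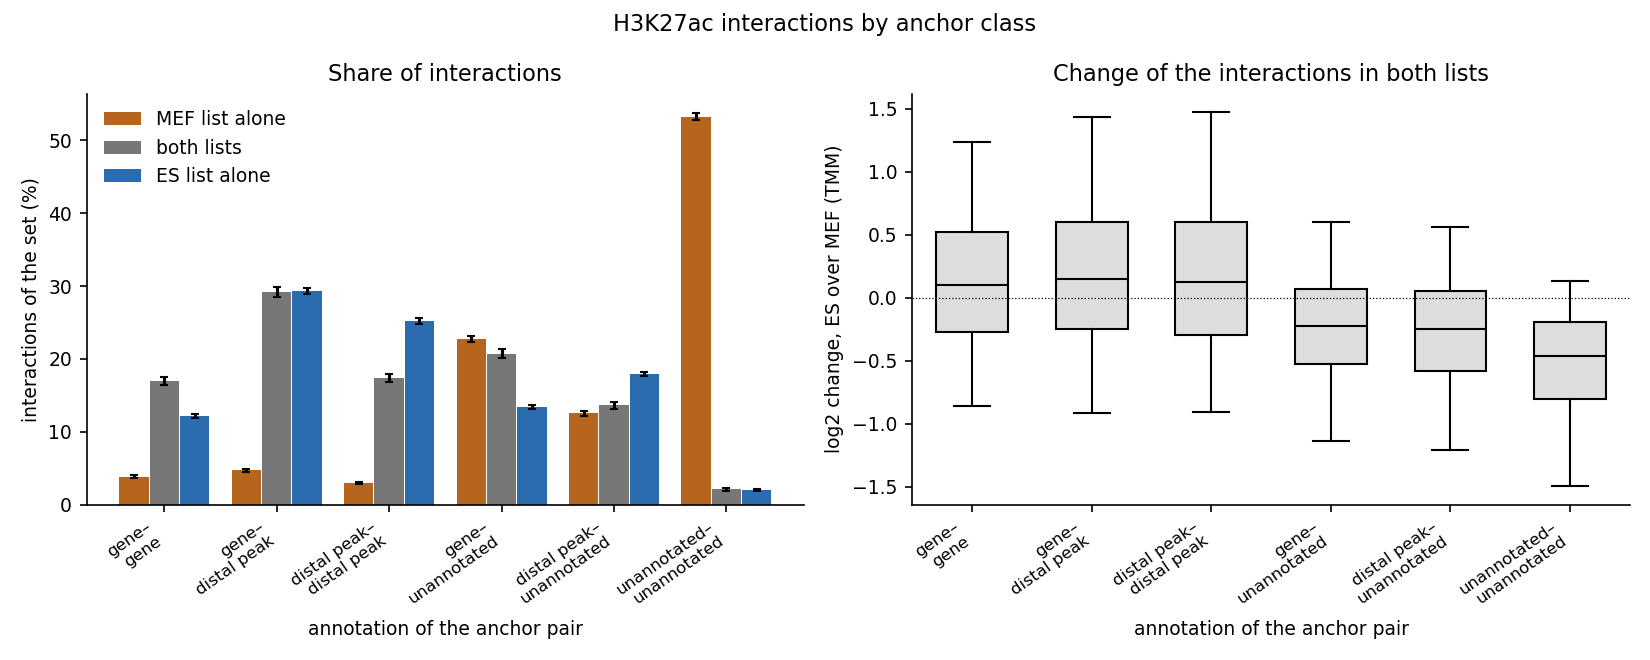
Left, percent of interactions per anchor class for the 3 sets, with 95% Wilson intervals; right, log2 change of the common interactions, ES over MEF under TMM, as boxes of the quartiles with the median and whiskers from the 5th to the 95th percentile. The MEF-alone bar stands out at 53.3% for pairs of unannotated bins, whose median change is -0.46, while genes joined to a distal peak have a median of 0.15. The peaks are those of ES-type cells.

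Per gene, interactions were counted at the 10 kb bin or bins of its starts. Of 16523 genes with an interaction in either list, 64.6% had more in ES and 28.6% had fewer, and these shares are the background for the gene groups that follow. Genes placed only at anchors of the TKO lists favour ES in these shares, and that part was not tested. For calls, the background is that of all common interactions, 17.6% higher in ES and 14.4% lower. All 28 pluripotency genes were placed, and 18 of 24 matrix genes. Interactions were listed in MEF alone for 3097 genes, in ES alone for 5058 and in both for 8368. Genes with starts in the same bin share their interactions. The labelled cell types were checked on short marker lists. All 7 pluripotency markers (*Pou5f1*, *Sox2*, *Nanog*, *Esrrb*, *Zfp42*, *Sall4*, *Dppa5a*) had more interactions in ES. Of 9 fibroblast markers 6 (*Col1a1*, *Col1a2*, *Thy1*, *Pdgfrb*, *Vim*, *Prrx1*) had more in MEF, while *Col3a1*, *Pdgfra* and *Twist1* had none in either list. *Sall4*, *Col1a1* and *Pdgfrb* were among the genes placed only at anchors of the TKO lists. Genes of the wider matrix and cytoskeletal groups did not all follow: *Flna* had 6 in MEF and 15 in ES, *Cnn2* 6 and 20, *Actn1* 3 and 8 and *Fn1* 1 and 5.

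The pluripotency genes had almost all their interactions in ES. Of 28 genes 27 had an interaction, all 27 with more in ES, for 4 interactions in MEF and 274 in ES counted gene by gene; *Gbx2* had none. *Pou5f1*, which encodes OCT4, had 0 in MEF and 17 in ES, reaching out to 410 kb. Its strongest joined it to the neighbouring bin of *Tcf19* and *Cchcr1*, at 44.5 and 50.7 CPM in the ES replicates. *Nanog*, the homeobox factor whose upstream run is shown above, had 1 and 23. Its strongest, over 60 kb, read 36.7 and 31.2 CPM in ES and was not listed in MEF. Its single MEF interaction, over 30 kb, read 4.20 and 5.09 CPM in MEF and 18.6 and 21.1 CPM in ES, without overlap, and rose by 1.78 ± 0.19 (SE) on the log2 scale (edgeR adjusted p 9.43e-11).

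*Mycn*, a MYC family factor, had 0 in MEF and 23 in ES. Its strongest joined it over 160 kb to the noncoding gene *Platr19*, at 32.5 and 28.6 CPM, a longer reach than the strongest one of *Nanog*. *Platr19* itself, placed only by the authors' names at anchors of the TKO lists, had 0 and 33. *Sox2* had 6 in ES alone, of which the contacts with bins 110 and 120 kb away read 11.4 and 10.5 CPM and 10.5 and 9.96 CPM, values that overlap those of the adjacent bin, 8.72 and 11.4 CPM. *Dppa5a*, an oocyte and ES cell RNA-binding protein gene, had 0 and 19, led by the adjacent *Ooep* bin at 83.0 and 80.1 CPM. *Tet1*, a DNA demethylating enzyme, had 7 in ES alone with up to 59.4 and 53.5 CPM.

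*Klf4*, which is one of the reprogramming factors carried by the cassette, had interactions in both cell types and shared none. In MEF its bin (chromosome 4, 55530001 to 55540000) met bins to one side, 10 kb away at 4.58 and 6.85 CPM and 120 kb away at 4.81 and 4.08 CPM. In ES it met 4 bins to the other side, the strongest 60 kb away at 12.5 and 12.3 CPM. Of the 8368 genes with interactions in both lists, 924 had none in common. Of the 3354 genes with 3 or more in each list, 23 had none in common, among them *Sik1*, a kinase gene, with 12 and 7, and *Ablim1*, an actin-binding protein gene, with 15 and 4; both were chosen after their values were seen.

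Signalling genes of the ES state split. Of 18 with an interaction, 9 had more in ES and 6 fewer. *Nodal*, a TGF-beta family ligand, had 0 and 21, *Tcf7l1*, a WNT pathway repressor, 0 and 17, and *Lifr*, the LIF receptor subunit, 0 and 12. *Il6st*, the partner subunit of that receptor, had 15 in each. In the other direction, *Stat3*, the transcription factor downstream of LIF, had 8 in MEF and 3 in ES, *Id1* had 11 and 5, and *Id3* 5 and 0. Among the 46 common interactions of these genes 5 were higher and 13 lower under TMM, and 11 and 9 with contact totals. The TMM shares were 10.9% and 28.3%, against 17.6% and 14.4% of all common interactions.

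Matrix genes leaned to MEF. Of 17 with an interaction, 15 had fewer in ES and 1 had more, with 116 interactions in MEF and 18 in ES. *Thbs2*, a matricellular glycoprotein, had 15 and 0, *Col6a1* and *Tnc* (collagen VI and tenascin C) 10 and 0 each, and *Col1a1*, the main collagen of connective tissue, 8 and 0 with up to 16.7 and 16.9 CPM. The exception was *Fn1*, fibronectin, with 1 and 5, none shared. *Sparc* had 8 in each, with 7 in common. Of all common interactions 14.4% were lower in ES and 17.6% higher, the background for the calls of this group. Of the 10 common interactions of the group 5 were lower in ES and 0 higher, with contact totals 3 and 0, and without MEF replicate 2 they were 2 and 0.

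Surface and cytoskeletal genes leaned to MEF as well. Of 22 with an interaction, 16 had fewer in ES and 5 had more. *Acta2*, smooth muscle actin, had 15 and 0 with 34.8 and 39.1 CPM at the strongest, and *Thy1* and *Vim* had 9 and 8 in MEF alone. *Acta2* lies on the densely listed chromosome 19, and with 1 count cutoff for all chromosomes it had 4 and 0. Other genes had common interactions at lower values. Of the 76 common interactions of the group, 41 were lower in ES and 2 higher, a 53.9% share against 14.4% of all common interactions; with contact totals it was 31 lower and 5 higher, and without MEF replicate 2 it was 23 and 3. *Ahnak*, a giant scaffold protein, had 32 and 28 with 27 in common, of which 20 were lower. This 1 gene thus held 27 of the 76 common interactions and 20 of the 41 lower calls. With *Vcl*, *Itga5* and *Lmna* it held most of the lower calls, so the group share rests mainly on these loci. *Vcl*, the adhesion protein vinculin, had 6 of 6 lower, *Itga5*, the fibronectin receptor subunit, 4 of 5, and *Lmna*, the nuclear lamina protein, 7 of 9, although *Lmna* and *Itga5* had more listed interactions in ES (10 and 16, and 5 and 8). At 6 CPM or more those 2 genes had fewer in ES, 8 and 7 and 5 and 4.

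One *Lmna* contact, between bins 20 kb apart, read 15.8 and 24.95 CPM in MEF and 9.13 and 9.44 CPM in ES. The groups did not overlap, and the change was -1.62 ± 0.15 (SE) in log2 (edgeR adjusted p 2.71e-12). The strongest *Ahnak* contact read 51.6 and 84.1 CPM in MEF and 30.6 and 31.2 CPM in ES. The MEF replicates of *Ahnak* lay far apart, yet both stood above both ES values, with a change of -1.34 ± 0.14 (SE) in log2 (edgeR adjusted p 4.94e-11).

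Mesenchymal transcription factors had few interactions in ES. Of 13 with an interaction, 11 had fewer in ES and 2 more; at 6 CPM or more it was 4 and 2 of 6. *Runx1*, a factor of blood and mesenchymal cells, had 24 in MEF, reaching to 760 kb, and 1 in ES. The shared one, with the adjacent bin, read 13.9 and 15.9 CPM in MEF and 7.74 and 9.63 CPM in ES, a log2 change of -1.15 ± 0.20 (SE; edgeR adjusted p 5.64e-06). Most of the others were weak, and at 6 CPM or more *Runx1* had 2 and 1. *Nfix* had 13 and 1, and *Prrx1*, a limb mesenchyme homeobox gene, 9 and 0, with 0 in each at 6 CPM or more.

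AP-1 genes divided by member. AP-1 is a dimer of JUN and FOS family proteins. Of 12 genes, 9 had fewer interactions in ES: *Fosl2* had 12 and 0, with a reach to 530 kb in MEF, *Jun* 10 and 1, *Fosl1* 9 and 2, and *Fosb* 6 and 2. *Junb* (8 and 13) and *Jund* (3 and 10) had more in ES. All 3 common *Jund* interactions were higher in ES, the one with *Lsm4* over 20 kb at 10.7 and 15.6 CPM in MEF and 28.8 and 29.8 CPM in ES, and for *Junb* 4 of 8 were higher and none lower. Over the group 8 of 30 common interactions were higher and 12 lower, and with contact totals 11 and 10. The TMM shares were 26.7% and 40%, against 17.6% and 14.4% of all common interactions.

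The TGF-beta and YAP genes had no common direction. Of 13, 7 had fewer in ES and 5 more, and at 6 CPM or more 3 had fewer and 6 more. *Tgfb3*, a ligand, had 11 and 0, *Tgfbr2*, its receptor, 9 and 0, and *Ankrd1*, a YAP target, 7 and 0. With 1 count cutoff for all chromosomes these genes had 1 and 0, 1 and 0, and 2 and 0. *Smad7*, the inhibitor of the pathway, went the other way with 8 and 28, and 4 of its 7 common interactions were higher and none lower. *Yap1* had 0 and 5. *Ctgf*, also a YAP target, had 10 and 4. The positional HOX and related genes were sparse: 9 of 17 placed had an interaction, 7 with fewer in ES and 2 with more, and 21 interactions in MEF against 2 in ES.

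Genes of chromatin and looping, and housekeeping genes, had more in ES almost throughout. All 12 housekeeping genes had more, against the background of 64.6%, with 36 interactions in MEF and 110 in ES. Of their 32 common interactions 14 (43.75%) were higher and 1 (3.1%) lower, against 17.6% and 14.4% of all common interactions. *Gapdh*, a glycolytic enzyme gene, had 1 and 10, and *Rpl13a*, a ribosomal protein gene, 8 and 18. The adjacent contact of *Rpl13a* read 35.7 and 35.8 CPM in ES and rose by 2.17 on the log2 scale (edgeR adjusted p 6.42e-16). Of 16 chromatin genes, 15 had more in ES: *Ep300*, the acetyltransferase that deposits H3K27ac, had 3 and 18, *Smc3*, a cohesin subunit, 6 and 20, and *Rad21*, another cohesin subunit, 0 and 8. *Dot1l* was the exception with 5 and 1. The greater depth of the ES libraries goes in the same direction as these counts, and its part was not tested. With the ES list cut to the length of the MEF list, 11 of 12 housekeeping and 14 of 16 chromatin genes had more in ES. That cut leaves the depth of the libraries unchanged.

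Markers of other cells were also listed. Of the endothelial and blood genes 3 of 6 placed had an interaction, all with more in ES (1 interaction in MEF and 9 in ES), and *Myf5* and *Des*, 2 of 4 placed muscle genes, had 3 interactions in MEF and 0 in ES. Of the neural genes 5 of 7 placed had an interaction, all with more in ES, for 4 interactions in MEF and 24 in ES, led by *Nes* (4 and 10) and *Olig2* (0 and 8). Of the primitive endoderm and trophoblast genes 5 of 9 placed had an interaction, 3 with more in ES and 2 with fewer, for 9 and 14 interactions. Over all genes 16523 of 31760 placed had one. The part of other cells in the results was not tested.

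**Figure D3:**
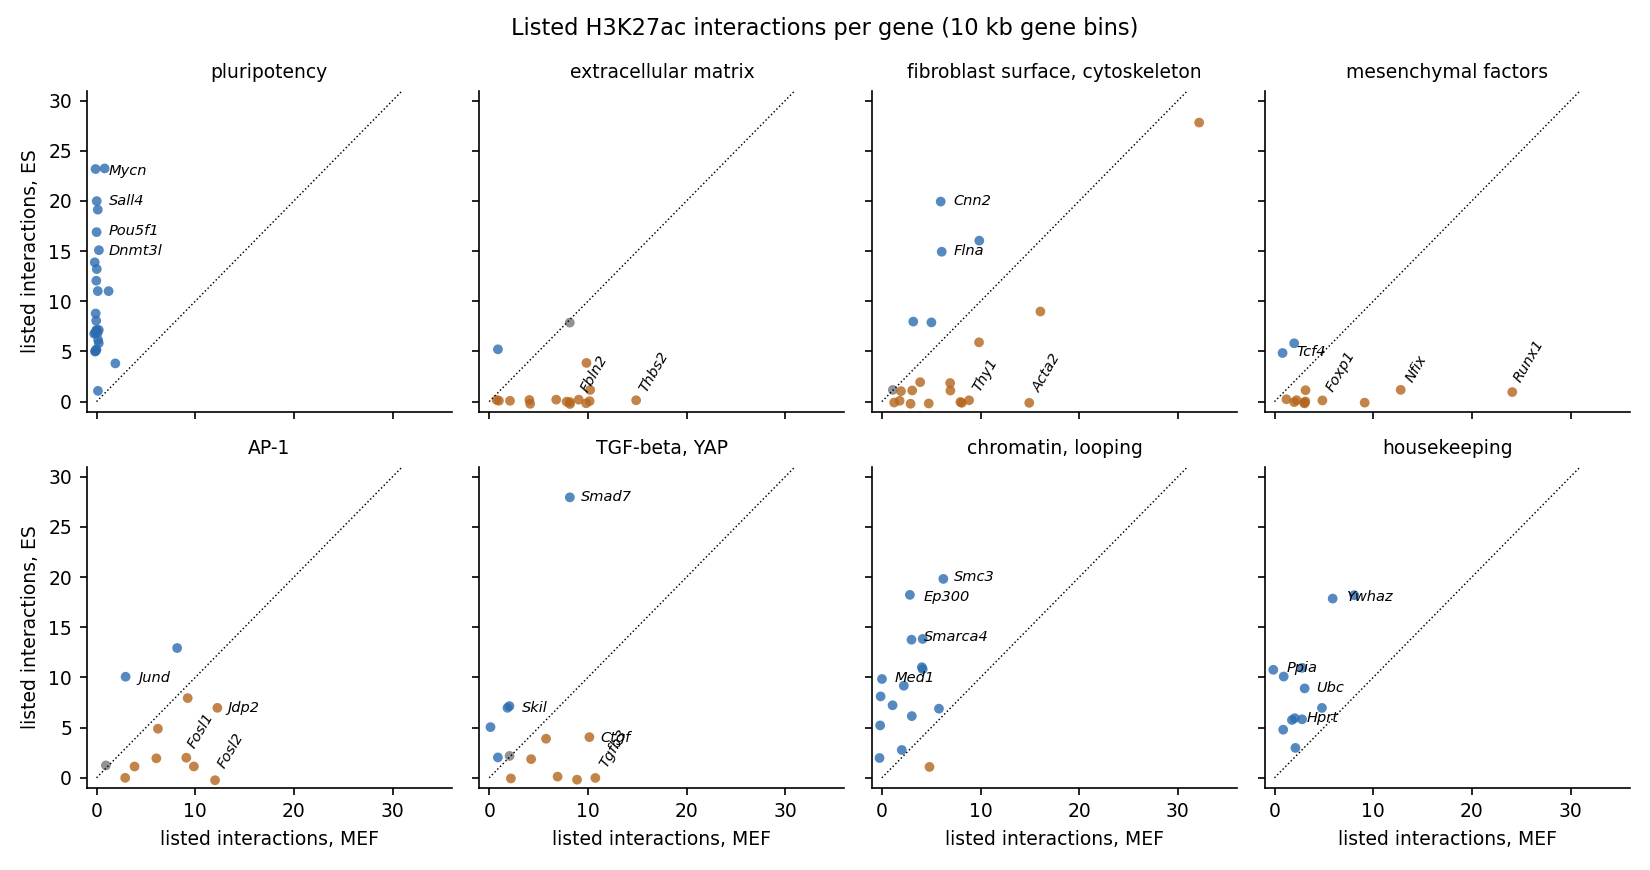
Listed interactions per gene in MEF (x) and ES (y), 1 point per gene with any interaction and slight jitter, for 8 gene groups; the dotted line marks equal numbers, blue has more in ES and brown fewer, and up to 4 genes are named per panel. Pluripotency genes lie along the y axis (up to 23 in ES), matrix genes along the x axis (up to 15 in MEF), and housekeeping genes above the line.

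Across the genome, the genes with the widest excess in ES were led by the locus *2410152P15Rik* with 0 and 45, *Bscl2*, the lipid droplet protein seipin, with 27 and 66, *Gcnt2*, a glycan-branching enzyme, with 16 and 49, and *Platr19*. *Rcor2*, a corepressor partner of LSD1, had 8 and 40 with 7 of 8 common interactions higher, *Fbxo15*, an F-box gene used as a pluripotency reporter, 0 and 31, and *Msh6*, a mismatch repair gene, 0 and 29. *Kat5*, the TIP60 acetyltransferase, had 24 and 56, yet none of its 23 common interactions was called. At *Gcnt2* 14 of 16 common interactions were higher, the strongest with the adjacent bin at 45.6 and 46.7 CPM in ES and a log2 change of 2.56. *2410152P15Rik*, *Bscl2*, *Kat5* and *Rcor2* lie on the densely listed chromosome 19. With 1 count cutoff for all chromosomes they had 0 and 6, 5 and 24, 6 and 10 and 0 and 16. *2410152P15Rik*, *Platr19* and *Fbxo15* were placed only by the authors' names at anchors of the TKO lists. That placing favours ES, and its part in this ranking was not tested.

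The widest excess in MEF was at mostly noncoding genes: *Gm31718* with 34 and 4, *D930032P07Rik* with 27 and 5, *Gm40436* with 22 and 0, and *Gm35940*, which shares its bin with *LOC115486408*, with 21 and 0. The protein-coding ones were *Runx1*, *Mrtfa*, a coactivator of serum response factor, with 23 and 4, and *Filip1l* with 20 and 1. *D930032P07Rik* also lies on chromosome 19, and with 1 count cutoff for all chromosomes it had 4 and 2. All 20 genes of this genome-wide choice kept their direction with 1 count cutoff and at 6 CPM or more.

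Of single interactions in both lists, the widest rises in ES joined distal peak bins to *2410080I02Rik* and *Klf9*, a KLF family factor, on chromosome 19. The first (23090001 to 23100000 with 23130001 to 23140000) read 5.05 and 5.13 CPM in MEF and 64.5 and 67.3 CPM in ES, a log2 change of 3.53 ± 0.22 (SE; edgeR adjusted p 7.11e-19). The second, over 60 kb, read 6.74 and 3.95 CPM in MEF and 63.1 and 57.3 CPM in ES. Both bins met further bins of the same stretch in ES alone at up to 63.8 and 62.4 CPM, so these are neighbouring readings of 1 region.

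*Myo10*, an unconventional myosin of filopodia, had 2 such interactions, over 10 and 20 kb; the shorter read 9.54 and 11.1 CPM in MEF and 114 and 126 CPM in ES (log2 change 3.26 ± 0.13, SE). *Trim28*, the corepressor recruited by KRAB zinc finger proteins, rose over 10 kb from 6.85 and 7.62 CPM to 70.0 and 70.4 CPM (log2 change 3.16 ± 0.14, SE). *Zfp57*, a KRAB zinc finger protein that guards imprints, rose over 30 kb from 3.90 and 4.98 CPM to 45.5 and 44.1 CPM (log2 change 3.16 ± 0.21, SE). The 8 widest rises also included *Mylpf*, a myosin light chain, and *Gm20703*. In all 8 the ES replicates lay close together and far above both MEF values.

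The widest falls began with *D930032P07Rik*, whose contact over 50 kb read 29.8 and 41.8 CPM in MEF and 4.71 and 3.47 CPM in ES (log2 change -3.31 ± 0.23, SE; edgeR adjusted p 7.39e-17). A pair of bins at *S100a3*, *S100a4* and *S100a5*, calcium-binding protein genes of which *S100a4* is a fibroblast marker, read 13.6 and 17.1 CPM in MEF and 3.59 and 3.18 CPM in ES. *Emp1*, a membrane protein gene, went from 13.9 and 15.3 to 3.08 and 3.46 CPM (log2 change -2.45 ± 0.20, SE). The ES values stood just above the listing floor of 3 CPM, so much wider falls from the same MEF values would have left the common set. Rises have the same limit on the MEF side, where contacts of *Zfp57* and *Gm20703* read as low as 3.90 and 3.04 CPM.

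*Amotl2*, an angiomotin that binds YAP, fell at contacts 60 and 70 kb long. The longer read 16.4 and 25.4 CPM in MEF and 4.30 and 4.89 CPM in ES (log2 change -2.40 ± 0.19, SE). *4930543E12Rik*, *Gm46289* and a contact of *Ahnak* over 80 kb made up the rest. The direction and the call of all 16 held under the alternatives that could be run on each: the other scalings, the replicate block, DESeq2, the distance, CPM and count cutoffs, and leaving out each library.

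**Figure D4:**
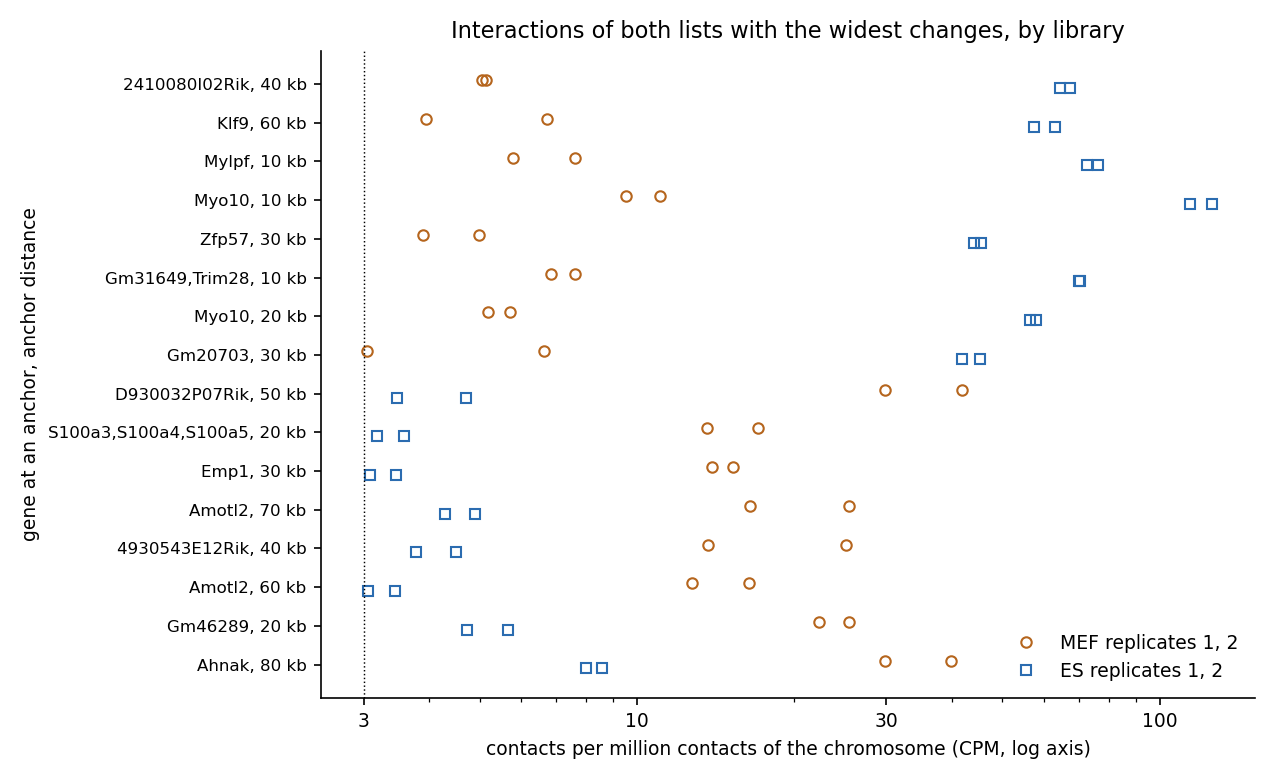
CPM per library (x, log axis) of the 16 common interactions with the widest called changes, each labelled by the genes at its anchors and the anchor distance; circles are the 2 MEF replicates, squares the 2 ES replicates, and the dotted line is the floor of 3 CPM. In the upper 8 both ES values exceed both MEF values (*Myo10*: 114 and 126 against 9.54 and 11.1 CPM), and in the lower 8 the order is the opposite.

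Interactions of 1 list alone that spanned 50 kb or more were strongest in ES at the *Klf9* region, between *4930535G08Rik* and *Hs6st1* (a heparan sulfate sulfotransferase gene) at 34.9 and 37.3 CPM over 50 kb, at *Platr19* over 150 kb with 35.005 and 37.03 CPM, and at *Nanog*. In MEF the strongest was that of *Gm46289* over 60 kb, at 31.8 and 38.8 CPM; it was also in the MEF Hi-C list and not in the ES one. The next in MEF, at *Gm34606* over 50 kb, read 21.1 and 20.2 CPM. The other 3 of the 5 strongest in MEF, at *Oacyl*, *Sgms1* and the bins of *Flot1* and *Ier3*, read 12.9 to 21.9 CPM. Since CPM is scaled within each chromosome, the order of these interactions across chromosomes is not one of counts.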

How the data were processed

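H3K27ac HiChIP interaction lists of MEF and ES (2 libraries each) were analysed. Per the file headers the deposited lists give a raw count, a CPM and 1 p-value and FDR per interaction. Alignment named Bowtie2 2.2.3 and mm10, per the submitters' processing notes; the contact caller is not given in the sources used here. As the values show, the authors kept interactions at 3 CPM or more with a p-value under a threshold before they were deposited; the deposited CPM is the count over the contacts of the chromosome, which count over CPM gives as a whole number for 20 of 20 chromosomes. The labels number 2 replicates per cell type, and p-values measure the spread between these.

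Counts of the 17901 common interactions were tested with edgeR 4.0.16 (R 4.3.3; glmQLFit, glmQLFTest, filterByExpr, which removed none, TMM on contact totals, Benjamini-Hochberg adjustment); the step was also tested on simulated data. Interactions matched when both 10 kb bins were identical. The replicates of a group differed beyond counting noise (chi-square per degree of freedom 1.12 in MEF and 1.05 in ES) and stayed separate. Gene starts were taken from RefSeq (GRCm38.p6) promoter entries for 27024 genes and from a gene body within 1 bin for 1940. For 2796 they were the bins the authors name, which are anchors of the TKO lists from before and after doxycycline treatment. A further 3625 genes were not placed. Alternatives were other scalings, DESeq2 1.42.0, a replicate block, leaving out each library, distance, CPM and count cutoffs, list length and annotation. Python 3.11.15, numpy 2.4.6, pandas 2.3.3, scipy 1.17.1 and matplotlib 3.10.9 were used. Members and gene lists were chosen with earlier results of these data known. Named were up to 5 genes per list and direction by difference in listed interactions, the 10 genes per direction over the genome, the 8 common interactions per direction with the widest called change, a gene at an anchor and no overlap of CPM, and the 5 strongest list-only interactions of 50 kb or more per cell type with a gene at an anchor; other genes are examples from the lists.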

Additional observations from a re-analysis of the deposited data

How the results depend on the processing

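The 17901 tested interactions are those in both lists, so gains and losses across the 3 CPM floor have no test, and shallow MEF libraries limit the precision of weak interactions. The total of 5721 calls came to 627 of 2620 for anchors at least 50 kb apart (337 higher, 290 lower), 3368 of 11598 without adjacent bins (1839 and 1529), 3176 of 7975 with 1 count cutoff for all chromosomes (1705 and 1471) and 2458 with DESeq2 (1588 and 870); the first 3 test fewer interactions, and for DESeq2 the cause was not tested. Leaving out each library gave 3333 to 4849 calls, 2094 to 2720 higher and 1239 to 2203 lower, the lowest without MEF replicate 2. Without TMM, on contact totals alone, 4831 were higher and 1426 lower, and with the totals of each chromosome 1457 were lower. At 6 CPM or more in every library of 1 group, 2426 were higher and 2724 lower, so lower calls made the larger share. Replicates of the same number did not deviate together (r = 0.03 over 17901 interactions). The replicates differed only slightly beyond counting noise, so this r cannot exclude that the numbers pair the libraries. With a replicate block 5879 were called, 5680 of them shared.

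The overlap of 29.4% of the MEF list became 42.9% with anchors 1 bin apart allowed, 11.002% at a deposited FDR under 0.1, 27.02% with the ES list at the length of the MEF list, 19.2% at 50 kb or more and, in an alternative chosen after seeing the data, 30.2% with 1 count cutoff. With that cutoff the share at 50 kb or more was 7.49% in MEF and 12.3% in ES, and at 200 kb or more 0.527% and 0.357%. With equal list length, a cut that raises the CPM floor of ES alone, ES had 19.3% and 0.890%. MEF kept the larger share at 200 kb or more in each of these. By the authors' gene names the share with a gene start was 14.7% of MEF alone and 46.2% of ES alone. Those names exist only at anchors of the TKO lists, and untreated TKO cells listed 9.66% of MEF-alone and 74.9% of ES-alone interactions. A lower MEF share was thus built into that setting. The gene share was 20.1% and 46.2% with protein-coding starts (chosen after seeing the data), 32.3% and 53.9% with equal list length, and 55.4% of ES alone with 1 count cutoff. Genes with fewer interactions in ES numbered 7 of the mesenchymal factors with 1 count cutoff; at 6 CPM or more they numbered 4 there, 3 of the TGF-beta and YAP genes (6 had more, which turned the direction), 4 of the positional and 0 of the muscle genes, and genes with more in ES numbered 1 of the primitive endoderm and trophoblast and 2 of the neural genes. Of 88 genes named from the lists, 77 kept their direction with 1 count cutoff, 8 had equal numbers and 3 turned (*Fgfr1*, *Itga5*, *Jdp2*); at 6 CPM or more 63 kept it, 20 were equal and 5 turned (also *Lmna* and *Smad3*). The cause of these moves was not tested.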
